A study of Mus musculus with 5 samples.

Results

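Superoxide and hydrogen peroxide are by-products of respiration and of many oxidases, and every cell removes them with the same short chain of enzymes. Superoxide dismutases turn superoxide into hydrogen peroxide, and peroxiredoxins, glutathione peroxidases and catalase then reduce or split the peroxide. The peroxiredoxins are recharged by thioredoxin and the glutathione peroxidases by glutathione, while catalase needs no reductant and works in peroxisomes, and the peroxide level is known to bear on self-renewal of neural precursor cells.

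The genes described here were the enzymes of this chain, chosen by name: the dismutases Sod1 and Sod2, the peroxiredoxins Prdx1, Prdx2, Prdx3, Prdx5 and Prdx6, the glutathione peroxidases Gpx1 and Gpx4, and the catalase gene Cat. They were 10 of 46078 genes in the deposited expression tables, and all 10 passed the filter, a mean of 1 TPM or more (TPM is a gene's length-corrected share of the transcripts of a library, scaled to the same total in each). Their summed level ran from 2487 to 2821 TPM per library, which was 0.249% to 0.282% of all transcripts.

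RNA-seq was done on 5 libraries of neural stem and precursor cells (NPC) from the subventricular zone of C57BL/6 mice without a mutation, aged 5 to 8 weeks by the labels and called female there, while the study's methods name the substrain C57BL/6j and give an older age, in months. The cells had been plated on coated wells in medium with growth factors and given PBS as a sham exposure, and RNA was taken after 1 h (2 libraries, replicates 1 and 2) or after 8 h (3 libraries, replicates 13, 14 and 15). No library of the 5 had been given hydrogen peroxide, so the comparison of 8 h with 1 h asks how the scavenging enzymes stood in sham-exposed cells over time in culture. The study's methods count each animal as a replicate of subventricular zone cells, but the labels do not tie the libraries to animals.

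The library identifiers in the labels fall into 2 number series, with both 1 h libraries and 8 h replicate 14 in series 1 and 8 h replicates 13 and 15 in series 2, so series 2 holds 8 h cells alone. The 3 libraries of series 1 also went against the label of female mice, with Xist at 0.0611 TPM or less and Y-linked genes summing to 138 to 181 TPM, against 165 and 200 TPM of Xist and no more than 0.0253 TPM of Y-linked genes in series 2. Mitochondrially encoded genes held 10.7% to 11.1% of TPM in series 1 and 6.23% and 6.30% in series 2. The precursor markers Sox2 and Nes stood at 181 to 228 and 690.1 to 784 TPM, while 6 red blood cell markers summed to at most 1.37 TPM, 5 microglial markers to at most 1.47 TPM and 4 endothelial markers to at most 2.10 TPM. Both adult beta-globin genes and Alas2 were at 0 in every library, as were Aif1 and Tmem119 of microglia and Cdh5 and Cldn5 of endothelium. A separate table of raw counts listed 7599 genes and 8 of the 10 enzymes (not Gpx1 and Gpx4), with 13988166 to 18572154 counts per column. Its columns were read by name, but names and values were at odds at 8 h. Within a tolerance of 0.1 log2, 79.1% of 6860 genes tied the replicate 13 column to the TPM table of replicate 14, the same share tied the replicate 15 column to the table of replicate 13, and no table reached more than 41.3% for the replicate 14 column. That 41.3% was with the table of 1 h replicate 2, against 26.4% with its own, so the values did not settle the time of the replicate 14 column. The counts are therefore given beside the TPM values and carry no library-by-library statement. Their comparison of 8 h with 1 h rests on the column names.

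Several genes of this chain are known to be raised through the antioxidant response element, the binding site of NRF2, and by AP-1, a dimer of Jun and Fos proteins. Promoter windows from RefSeq (GRCm38.p6, 250 bases before to 50 after each start site) were at hand for 9 of the 10 genes. The element's core, TGACNNNGC on either strand, was found in the windows of Prdx1 and Sod1 and of no other enzyme, 2 of 12 windows against 12.4% of 32851 windows in the whole table. The windows of these 2 genes are shown with the match in capitals, followed by that of Sod2, the mitochondrial counterpart of Sod1, which held no match.
Prdx1, chr4:116685349-116685648, + strand: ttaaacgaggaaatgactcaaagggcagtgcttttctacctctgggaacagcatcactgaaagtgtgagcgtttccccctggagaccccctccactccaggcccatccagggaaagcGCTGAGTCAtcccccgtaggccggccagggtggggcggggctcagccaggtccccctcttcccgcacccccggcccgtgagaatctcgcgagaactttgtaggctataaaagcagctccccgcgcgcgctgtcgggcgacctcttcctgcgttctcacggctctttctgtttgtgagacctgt
Sod1, chr16:90220512-90220811, + strand: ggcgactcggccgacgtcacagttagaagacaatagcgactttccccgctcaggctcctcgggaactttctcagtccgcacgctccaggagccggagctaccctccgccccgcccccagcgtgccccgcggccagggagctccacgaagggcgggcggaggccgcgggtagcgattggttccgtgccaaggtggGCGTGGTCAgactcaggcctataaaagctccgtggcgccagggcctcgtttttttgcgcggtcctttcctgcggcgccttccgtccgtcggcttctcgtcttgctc
Sod2, chr17:13007589-13007888, + strand: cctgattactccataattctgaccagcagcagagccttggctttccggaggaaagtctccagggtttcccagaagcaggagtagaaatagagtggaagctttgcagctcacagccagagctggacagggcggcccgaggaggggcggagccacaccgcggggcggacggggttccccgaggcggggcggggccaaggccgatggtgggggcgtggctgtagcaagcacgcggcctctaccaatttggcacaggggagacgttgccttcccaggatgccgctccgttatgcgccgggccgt

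The Prdx1 match began at position -133 from the start site and overlapped an AP-1 sequence (TGANTCA), which the Prdx1 window held at 2 places and no other enzyme's window held at all, 1 of 12 windows against 7.81%. The Sod1 match began at position -56. The 9 genes have 12 windows in all, 4 of them of Gpx4. A GC box (GGGCGG, either strand) was found in 11 of the 12, against 35.7% of all windows, with 4 matches in each of the Sod1 and Sod2 windows. CCAAT was found in 6 of the 12 (Cat, Gpx4, Sod1 and Sod2) against 37.4%, and TATAAA in 3 of the 12 (Prdx1, Prdx3 and Sod1) against 13.6%. GC content in the 3 windows shown was 60.7%, 66.7% and 64.3%, against a median of 52.7% over all windows. These are matches of letters and not measured binding sites.

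Sod1, Prdx2 and Prdx1, whose products work mainly in the cytosol, stood highest, and the peroxisomal catalase and mitochondrial dismutase genes lowest. By mean TPM over the 5 libraries the order was Sod1 (544 ± 51.6, SD, n = 5), Prdx2 (532 ± 19.7), Prdx1 (456 ± 42.3), Gpx4 (293 ± 25.0), Prdx6 (249.9 ± 49.4), Gpx1 (188 ± 88.1), Prdx3 (136 ± 18.0), Prdx5 (114 ± 13.9), Cat (83.0 ± 5.62) and Sod2 (68.7 ± 8.50). All 10 lay high among the 13870 genes tested, from the 80.7th percentile for Sod2 to the 98.4th for Sod1. By TPM, neighbours kept their order in all 5 libraries for Prdx2 over Prdx1, Prdx1 over Gpx4, Prdx3 over Prdx5, Prdx5 over Cat and Cat over Sod2. Sod1 was above Prdx2 in 3 of 5 libraries, and Gpx4 over Prdx6, Prdx6 over Gpx1 and Gpx1 over Prdx3 held in 4 of 5, so those neighbours did not differ beyond their spread. An exact two-sided permutation test within libraries cannot go below p = 0.0625 with n = 5, which the 5 unbroken pairs reached (0.1125 after Benjamini-Hochberg adjustment over the 9 pairs).

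**Figure D1:**
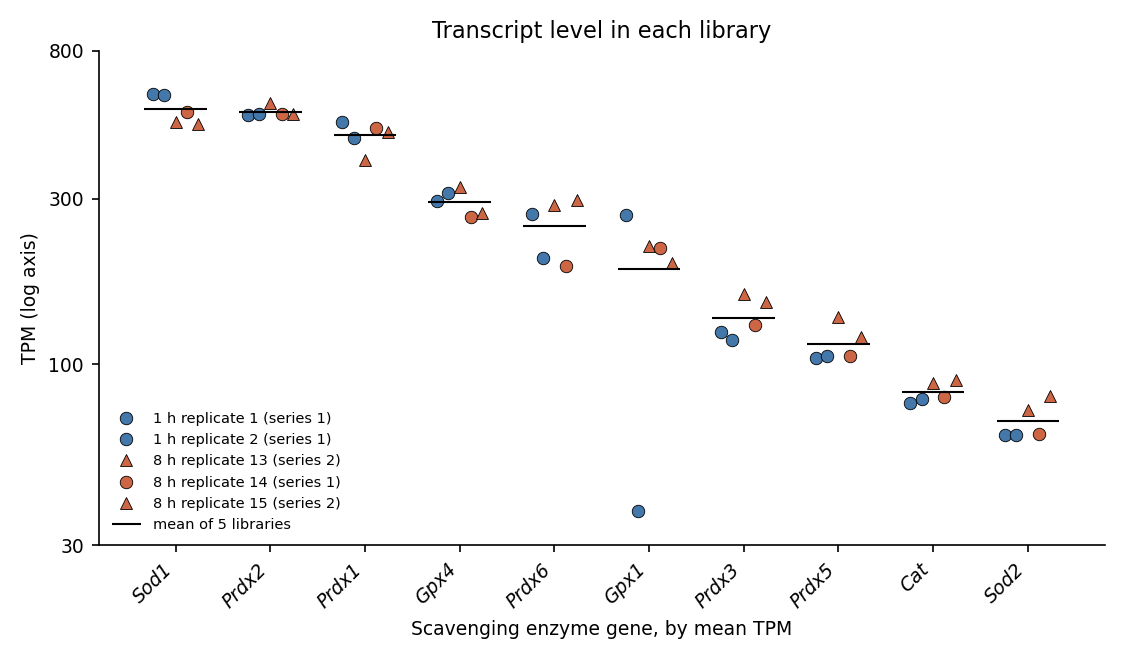
TPM of each scavenging enzyme gene in each of the 5 libraries on a log axis, coloured by time (blue 1 h, orange 8 h) and shaped by identifier series (circle 1, triangle 2), with the mean of the 5 as a line. The order runs from Sod1 at 544 TPM to Sod2 at 68.7 TPM, and Gpx1 in 1 h replicate 2, at 37.6 TPM, is the point that stands far from its gene's other libraries.

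Among the 8 peroxide-removing enzymes, the 5 peroxiredoxins held 72.7% ± 2.51 of the TPM (SD, n = 5; 70.3% to 76.5%), both glutathione peroxidases together 23.3% ± 2.76, and catalase 4.06% ± 0.294. Prdx1 and Prdx2, the abundant cytosolic peroxiredoxins, made up 48.4% ± 3.57 on their own. Sod1 held 88.7% ± 2.12 of the dismutase TPM, and the peroxide-removing enzymes together stood 3.37 ± 0.402 times above the dismutases. Within mitochondria, the peroxidase gene Prdx3 stood at 1.98 ± 0.122 times the dismutase gene Sod2, a ratio that varied from 1.86 to 2.15 although both genes varied by 1.35-fold and 1.30-fold over the libraries.

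Levels of some of these genes depended on which deposited measure was read. The tables also give the mean per-base coverage, and coverage per TPM reached 99.4% to 100% of the common ceiling of a library for Prdx3, Cat, Sod1 and Sod2, but 70.4% to 74.3% for Gpx1 and 33.1% to 52.7% for Prdx1, Prdx2, Prdx5, Prdx6 and Gpx4. Prdx1, Prdx2, Prdx5, Prdx6 and Gpx4 have 5 to 9 annotated transcripts each, but Sod2 has 8 as well. By coverage Sod1 held 31.8% of the summed level of the 10 genes instead of 20.5%, the order after Sod1, Prdx2 and Prdx1 became Prdx3, Gpx1, Gpx4, Prdx6, Cat, Sod2 and Prdx5, and the catalase share of the peroxide-removing enzymes was 7.53%. By coverage the peroxide-removing enzymes summed to 1.81 ± 0.235 times the dismutases, against 3.37 by TPM. Prdx2 was above Prdx1 by coverage in 2 of 5 libraries, so that pair was not ordered by this measure. The peroxiredoxin share was 69.0% by coverage, and Sod1's share of the dismutases was 88.7% by both measures.

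**Figure D2:**
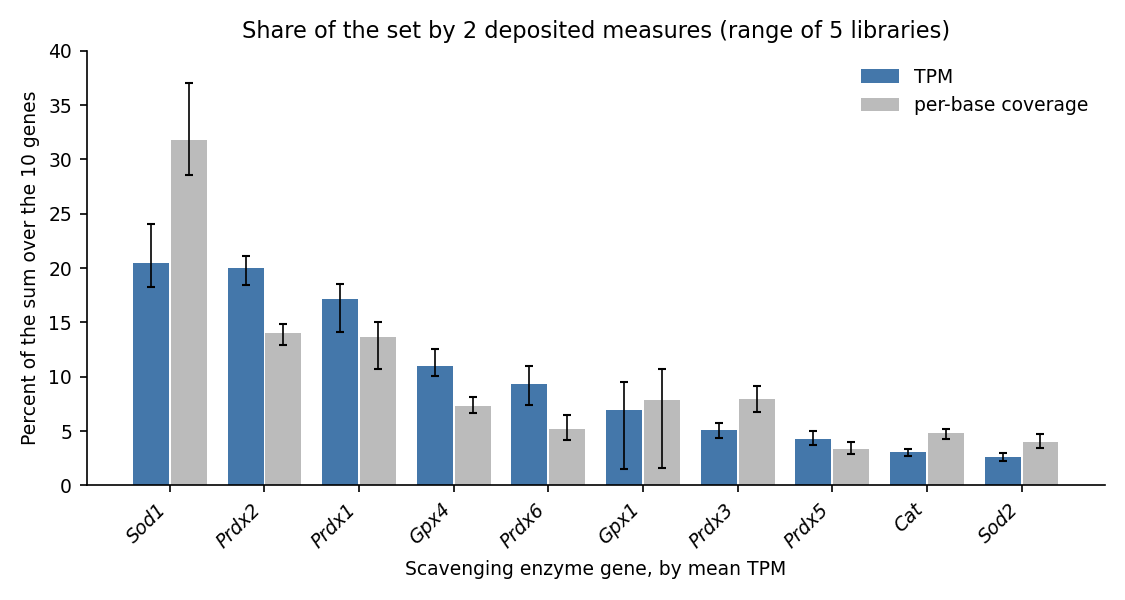
Percent of the summed level of the 10 genes held by each gene, by TPM (blue) and by per-base coverage (grey), as means over 5 libraries with bars from the lowest to the highest library. Sod1 rises from 20.5% by TPM to 31.8% by coverage, while Prdx2 goes from 20.0% to 14.1% and Prdx6 from 9.33% to 5.24%.

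Near-identical copies took little of the signal. Annotated transcripts of other genes with at least 90% identity over at least 50% of the enzyme's transcript were found for Prdx1 (3 copies), Gpx4 (2), Prdx2, Prdx6 and Sod1 (1 each). The Prdx1 pseudogenes Gm21399, Gm7204 and Gm15974 summed to 3.27 to 5.96 TPM per library, 1.00% of the Prdx1 level, with Gm15974 at 0 throughout. Tdpx-ps1, a copy of Prdx2, averaged 1.66 TPM, Gm8566, a copy of Sod1, 1.43 TPM, and Prdx6b 0.0143 TPM, and the 2 copies of Gpx4 (Gpx4-ps2 and AC122253.3) have no row in the tables. Reads shared with these copies could have been split between the genes. Prdx2 overlaps Rnaseh2a and Junb, Prdx5 overlaps Trmt112 and Sod1 overlaps Scaf4, each on the opposite strand.

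None of the 10 enzymes was called between 8 h and 1 h. A call needed an absolute log2 fold change above 1 and an adjusted p no higher than 0.05 (limma on log2(TPM + 1), Benjamini-Hochberg over all 13870 genes), and 6 genes in all (0.0433%) met this. The median log2 fold change of the 10 was 0.13, beside 0.10 over all genes tested, and 7 of the 10 were positive, against 65.9% of all genes. The levels did not overlap between the times for 6 enzymes: Prdx2, Prdx3, Prdx5, Cat and Sod2 were higher in each 8 h library (5 of 10, against 23.7% of all genes tested) and Sod1 was lower (1 of 10, against 9.43%). Only Sod1 had an unadjusted p under 0.05 (1 of 10, against 12.3%), with 0 of 10 higher at that level against 9.52% and 1 of 10 lower against 2.82%. The sum of 4 ependymal markers (Tmem212 at 0) was 23.7 and 27.5 TPM at 1 h and 16.3 to 18.8 TPM at 8 h. Foxj1 made up most of that sum (log2 fold change -0.61 ± 0.14, limma adjusted p = 0.287), so its fall is that of 1 gene. Rsph1 had the higher mean at 8 h (1.15 against 0.592 TPM), with 8 h replicate 14 below both 1 h libraries, and Ccdc153 overlapped between the times. The part of these markers in the enzyme values was not tested.

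Sod1, the copper and zinc dismutase of the cytosol (chr16:90220742-90226322 in the GRCm38 coordinates of the tables), had 599 and 597 TPM in the 1 h libraries and 499.5, 534 and 492 TPM in the 8 h replicates 13, 14 and 15. Each 8 h library was below both 1 h libraries, and the 8 h library of series 1 was the nearest to them. The log2 fold change was -0.23 ± 0.09 (SE), with an unadjusted p of 0.0409 and an adjusted p of 0.396 by limma. Sod2, the manganese dismutase of the mitochondrial matrix (chr17:13007839-13018119), went the other way. It stood at 62.6 and 62.6 TPM at 1 h and at 74.0, 63.0 and 81.2 TPM at 8 h, with 8 h replicate 14 within 1 TPM of the 1 h libraries (log2 fold change 0.20 ± 0.13, limma adjusted p = 0.490). The ratio of Sod1 to Sod2 was 9.56 and 9.54 at 1 h and 6.75, 8.47 and 6.06 at 8 h, without overlap between the times.

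Prdx2 (chr8:84969587-84974834) and Prdx1 (chr4:116685544-116700822), the abundant cytosolic peroxiredoxins, did not differ beyond their spread. The 1 h libraries held 521 and 524 TPM of Prdx2 and the 8 h libraries 567, 525 and 524 TPM, the most even of the 10 genes at 1.09-fold from the lowest to the highest library. Its 8 h libraries lay above both 1 h libraries by less than 1 TPM in replicates 14 and 15 (log2 fold change 0.04 ± 0.09, limma adjusted p = 0.822), and its sign turned under 2 other scalings (-0.07 with median-ratio scaling and -0.0081 without mitochondrial genes). For Prdx1 the 1 h values were 499 and 449.6 TPM and the 8 h values 388, 479 and 466 TPM, with the lowest value in 8 h replicate 13 and the groups overlapping (log2 fold change -0.10 ± 0.13, limma adjusted p = 0.711).

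Prdx3, the peroxiredoxin of mitochondria (chr19:60864051-60874556), stood at 123 and 117 TPM after 1 h, and at 159, 129 and 151 TPM after 8 h. All 8 h values were above the 1 h values, with the smallest gap again in 8 h replicate 14, and the log2 fold change was 0.27 ± 0.12 (limma adjusted p = 0.408). Prdx5, found in mitochondria, peroxisomes and cytosol (chr19:6906697-6910106), gave 103.9 and 105.5 TPM after 1 h, against 136.3, 105.6 and 119.6 TPM after 8 h, so 8 h replicate 14 stood level with the 1 h libraries (log2 fold change 0.19 ± 0.13, limma adjusted p = 0.502). Prdx6, the peroxiredoxin that reduces phospholipid hydroperoxides and uses glutathione (chr1:161240112-161251219), measured 271 and 202 TPM after 1 h, then 288, 192 and 296 TPM after 8 h. Its groups overlapped, with a low and a high library at each time (log2 fold change 0.12 ± 0.23, limma adjusted p = 0.806).

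Gpx1, the selenoenzyme that reduces soluble peroxides with glutathione (chr9:108338903-108340343), was set apart by 1 library. It had 269.5 TPM in 1 h replicate 1 but 37.6 TPM in 1 h replicate 2, and 218, 216 and 196 TPM at 8 h. The other 4 libraries averaged 225 ± 31.4 TPM (SD, n = 4), and the lowest of them was 5.21 times the value in 1 h replicate 2. Of 1727 genes with a median of 100 TPM or more, Gpx1 was the 1 gene in 1 h replicate 2 that stood at 25% or less of its lowest other library. Rhoa, its neighbour on chromosome 9, had 429 to 505 TPM in all 5 libraries. Gpx1 has no row in the count table, so its reads in that library were not checked. The log2 fold change was 1.05 ± 0.75 (limma adjusted p = 0.529) and became -0.36 (adjusted p = 0.796) without 1 h replicate 2, so the direction rests on that library. Gpx4, the selenoenzyme that removes lipid hydroperoxides from membranes (chr10:80047166-80056439), reached 295 and 312 TPM after 1 h, and 323, 265 and 272 TPM after 8 h, with overlapping groups (log2 fold change -0.09 ± 0.12, limma adjusted p = 0.725).

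Cat, which encodes the catalase of peroxisomes (chr2:103453849-103485160), was at 77.5 and 79.4 TPM after 1 h, and at 88.0, 80.2 and 90.1 TPM after 8 h. Its 8 h libraries lay above the 1 h libraries, by less than 1 TPM in replicate 14 (log2 fold change 0.13 ± 0.10, limma adjusted p = 0.538). Sod1 thus stood at 7.73 and 7.52 times Cat at 1 h and at 5.67, 6.65 and 5.46 times Cat at 8 h.

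**Figure D3:**
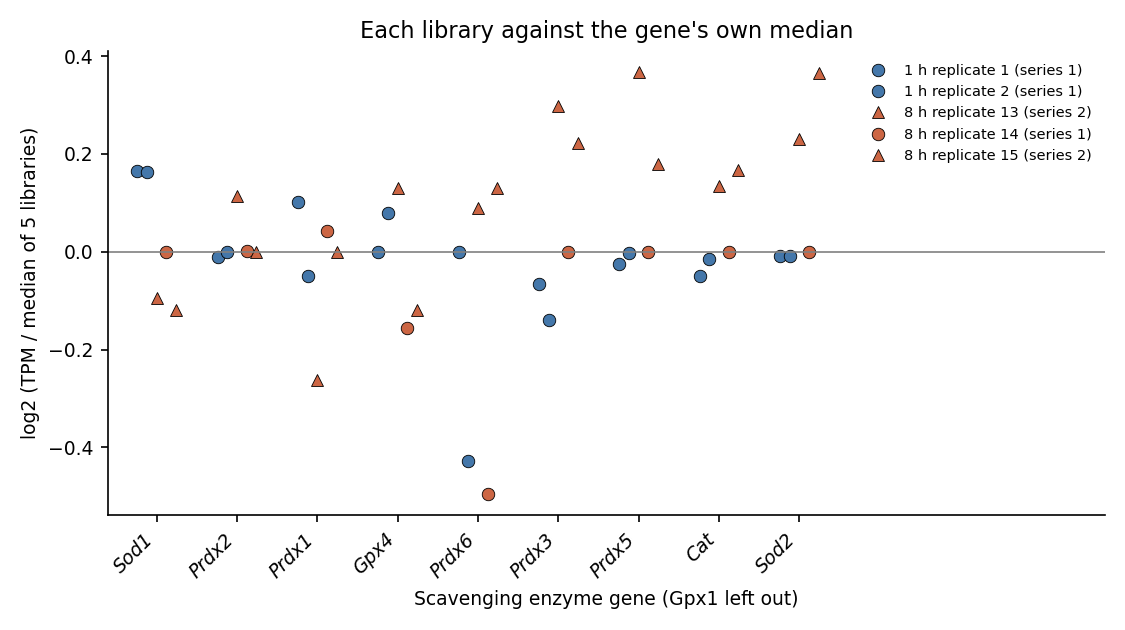
Level of each gene in each library on a log2 scale relative to the gene's median over the 5 libraries, with Gpx1 left out because 1 of its libraries stands at -2.52. For Prdx3, Prdx5, Cat and Sod2 the triangles of series 2 lie above the circles, including the 8 h circle of replicate 14, and for Sod1 they lie below.

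In the count table the 8 enzymes it lists had 1446 (Prdx5) to 14033 (Prdx1) counts per column, and none was called by edgeR's quasi-likelihood test. No gene was called among 7590 (0.00%), although 2.62% had an unadjusted p under 0.05 by edgeR, 2.99% by DESeq2 and 2.35% by limma-voom, and neither DESeq2 nor limma-voom called any gene. The log2 fold changes were -0.16 ± 0.16 for Sod1, -0.05 ± 0.11 for Prdx1, -0.03 ± 0.09 for Cat, -0.02 ± 0.09 for Prdx2, 0.03 ± 0.09 for Sod2, 0.12 ± 0.10 for Prdx3, 0.14 ± 0.16 for Prdx6 and 0.14 ± 0.14 for Prdx5 (edgeR adjusted p from 0.966 upwards). Cat and Prdx2 differed in sign from the TPM result, with the times of the counts taken from column names alone.

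The identifier series divided the values of 6 enzymes, a share near that of all genes. Both libraries of series 2 lay above all 3 of series 1 for Prdx3, Prdx5, Prdx6, Cat and Sod2 (5 of 10, against 39.8% of all genes tested) and below them for Sod1 (1 of 10, against 13.5%). For Prdx6 the series sorted what the times had not: 192 to 271 TPM in series 1 and 288 and 296 TPM in series 2. With time as a term, the series coefficient of limma compares 8 h replicates 13 and 15 with 8 h replicate 14. A gene's own spread comes from the 1 h pair and the series 2 pair alone, and the lone library is assumed to vary like them. The coefficient takes its standard error from that spread, moderated by limma toward a trend over all genes. It was 0.60 ± 0.18 for Prdx6 (unadjusted p = 0.0158, adjusted p = 0.0984), 0.29 ± 0.11 for Sod2 (adjusted p = 0.173), 0.27 ± 0.12 for Prdx5 (adjusted p = 0.220) and 0.26 ± 0.10 for Prdx3 (adjusted p = 0.185). Those of Cat (0.15 ± 0.10), Gpx4 (0.16 ± 0.13), Prdx2 (0.05 ± 0.10), Gpx1 (-0.06 ± 1.01), Sod1 (-0.11 ± 0.09) and Prdx1 (-0.17 ± 0.14) had adjusted p-values from 0.417 to 0.977.

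None of the 10 was called by series, against 4.02% of all genes, and none had an adjusted p of at most 0.05, against 9.09%. Prdx3, Prdx6 and Sod2 had unadjusted p-values under 0.05, all higher in series 2 (3 of 10, against 26.4% of all genes in either direction and 20.3% in that one), and 0 of 10 were lower at that level, against 6.13%. The median coefficient of the 10 was 0.16, beside 0.11 over all genes tested. Marker sums of other cell types moved with the series: 4 neuronal markers (none at 0) summed to 57.8 to 62.6 TPM in series 1 and 37.5 to 38.5 TPM in series 2, and 4 oligodendrocyte markers (none at 0) to 113 to 164 TPM and 35.5 to 69.1 TPM. Not every marker followed its sum, since the series coefficient was 0.38 for Snap25 and 0.02 for Rbfox3 among the neuronal markers and 0.24 for Mag among those of oligodendrocytes. Their part in the enzyme values was not tested, nor was that of the mitochondrial share or of the sex of the mice, and in bulk RNA fewer cells of a type and less RNA per cell cannot be told apart. Without 8 h replicate 14, where time and series cannot be told apart, Prdx3 had a log2 fold change of 0.36 (limma adjusted p = 0.0358) and Sod1 of -0.27 (adjusted p = 0.0494), 2 of 10 against 20.0% of all genes at that adjusted p. Within series 1, the 8 h library differed from the 1 h libraries by -0.16 for Sod1 and 0.10 for Prdx3 on the log2 scale and by 0.0090 for Sod2.

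**Figure D4:**
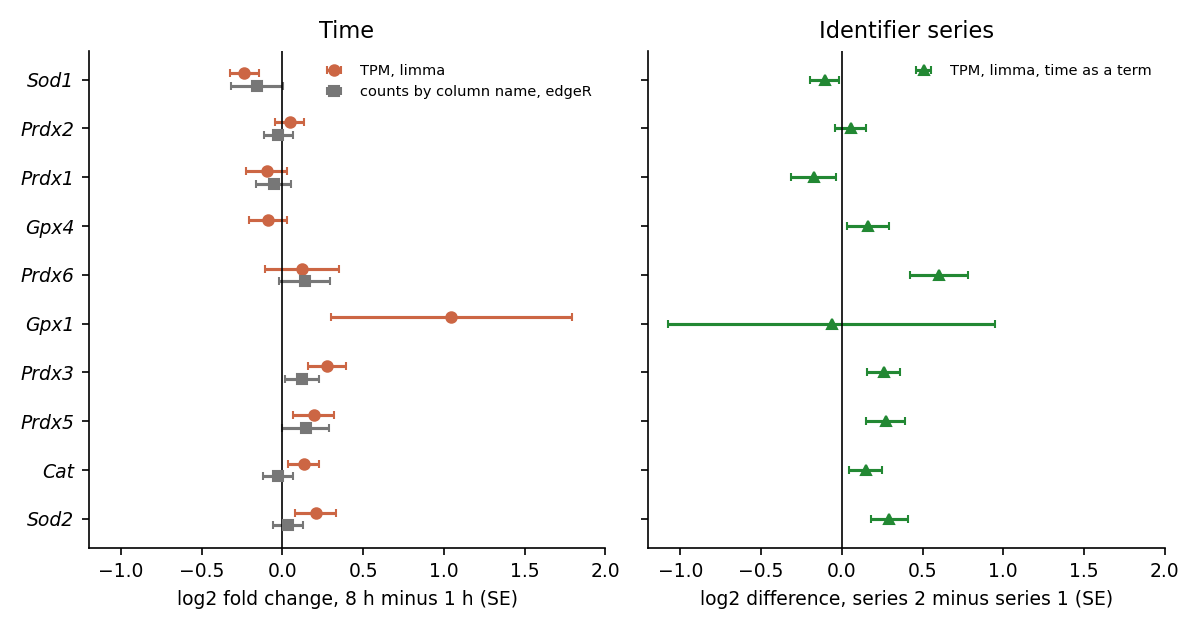
Log2 fold change of each gene between 8 h and 1 h by TPM (orange circles) and by counts (grey squares, none for Gpx1 and Gpx4), and the log2 difference between identifier series with time as a term (green triangles), with standard errors as bars. Prdx6 has the largest series coefficient at 0.60, and the wide bars of Gpx1 belong to the gene with 37.6 TPM in 1 library.

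The rest of each enzyme family was low or silent apart from Gpx8 and Prdx4, which serve the endoplasmic reticulum. Gpx8 averaged 97.2 TPM and Prdx4 85.5 TPM, with Gpx8 above Cat in 4 of 5 libraries (not 8 h replicate 15) and Prdx4 above Cat only in the 2 libraries of series 2. Gpx7 averaged 5.91 TPM and Gpx3, the secreted glutathione peroxidase, 7.64 TPM, Sod3, the extracellular dismutase, was at 0.674 TPM, and Gpx2, Gpx5 and Gpx6 were listed at 0 in every library. Between the times 4 of these 8 could be tested and none was called, against 0.0433% of all genes. By series Gpx3 was higher in series 2 by 1.82 ± 0.23 on the log2 scale (limma adjusted p = 0.0128) and Gpx7 by 1.11 ± 0.16 (adjusted p = 0.0161). Both were called, 2 of the 4 tested, against 4.02% of all genes. Prdx4 was higher by 0.87 ± 0.10 (adjusted p = 0.0111), under the fold threshold. Thus 3 of the 4 had an adjusted p of at most 0.05, against 9.09% of all genes. Gpx3 had 3.69, 4.63 and 3.05 TPM in series 1 and 15.5 and 11.4 TPM in series 2, and Prdx4 had 73.0, 70.9 and 60.5 TPM in series 1 and 113.4 and 109.8 TPM in series 2. The coefficients of Gpx3, Gpx7 and Prdx4 were larger than that of any of the 10, where the highest was 0.60, with no test of that difference.

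The genes listed as reductants of the peroxidases, which also include glutathione synthesis, glutaredoxin and sestrin genes, were led by Txn1. Txn1, the cytosolic thioredoxin, stood at 577 TPM on average, above Sod1. Txnrd1, which reduces thioredoxin, averaged 201 TPM, Sesn2, of the sestrin family, 117 TPM, and Glrx5, a mitochondrial glutaredoxin, 116 TPM. Of 16 such genes all were tested, and 12 were higher and 4 lower at 8 h, where 65.9% of all genes tested were higher. None was called (against 0.0433% of all genes) and none had an unadjusted p under 0.05 (against 12.3%). Their median log2 fold change was 0.16, beside 0.10 over all genes tested. By series 8 of the 16 had an unadjusted p under 0.05, against 26.4% of all genes tested. Of those 8, 7 were higher in series 2, against 20.3% of all genes in that direction. None of the 16 was called by series, against 4.02%. Gclm, the modifier subunit of the first enzyme of glutathione synthesis, was picked out after its value was seen. It was the 1 of the 16 with an adjusted p of at most 0.05, against 9.09% of all genes (0.98 ± 0.22, limma adjusted p = 0.0488).

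Genes that load copper or selenium or import catalase were led by Atox1 (103 TPM), a copper chaperone, the copper transporter gene Slc31a1 (75.9 TPM), Ccs (51.9 TPM), which hands copper to Sod1, and Pex14 (43.2 TPM), part of the peroxisomal import site. Of 11 such genes 7 were higher and 4 lower at 8 h, where 65.9% of all genes tested were higher. None was called by time (against 0.0433% of all genes) or by series (against 4.02%), and the median log2 fold change was 0.11. Among the sources of superoxide or peroxide, Poldip2, which binds Nox4, averaged 135 TPM, the spermine oxidase gene Smox 71.8 TPM and the monoamine oxidase gene Maoa 68.3 TPM. The NADPH oxidase genes and their subunit gene Cyba were near silent: Nox4 stood at 0.840 TPM, Cyba, Cybb, Nox1 and Duox2 at no more than 0.0228 TPM, and Nox3 and Duox1 at 0. Of the other oxidases, the xanthine dehydrogenase gene Xdh and the D-amino acid oxidase gene Dao were at 0 and Hao1, a hydroxyacid oxidase gene, at 0.0752 TPM. In all 19 source genes had a row, and of these 9 could be tested. At 8 h 6 were higher and 3 lower, beside 65.9% of all genes higher, and none was called (against 0.0433% of all genes). Ero1l, an oxidase of the endoplasmic reticulum, was picked out after its value was seen. It was the 1 of the 9 with an unadjusted p under 0.05 by time, against 12.3% of all genes (log2 fold change 0.37 ± 0.11, limma adjusted p = 0.334). By series Maob was called, 1 of the 9 against 4.02% of all genes (1.13 ± 0.24, limma adjusted p = 0.0449), at 0.719 to 3.07 TPM.

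**Figure D5:**
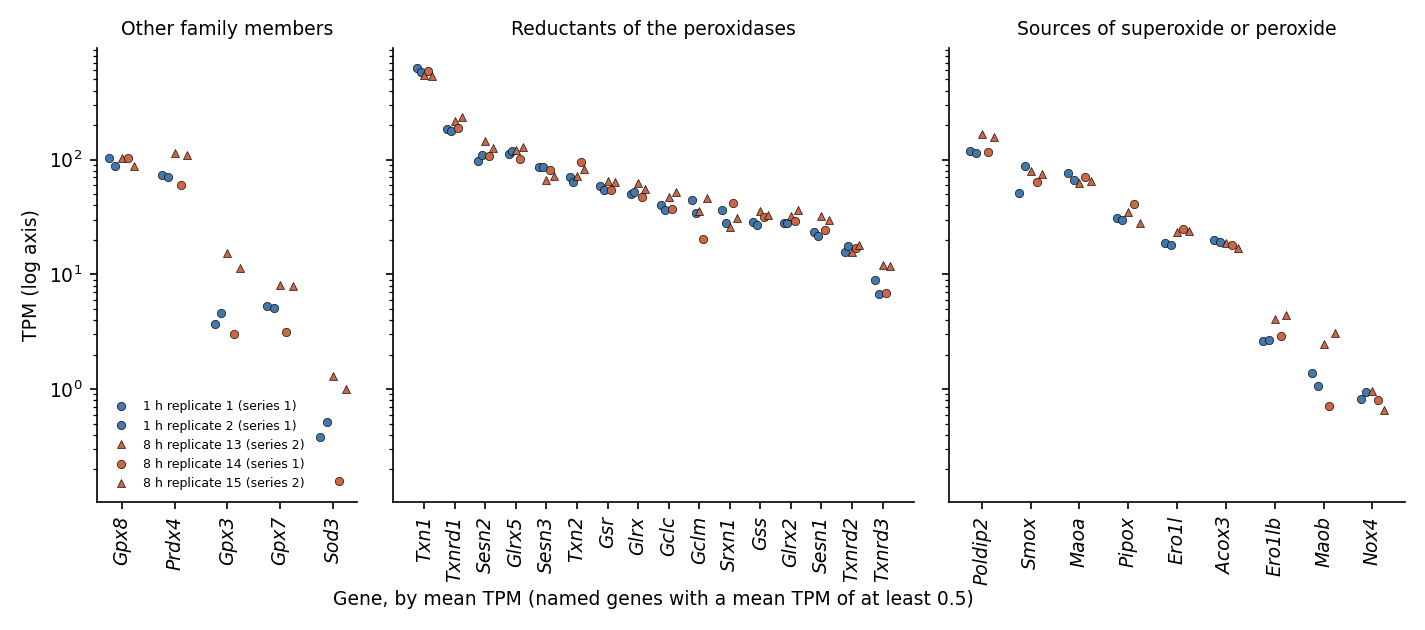
TPM in each library, on a log axis, of the other family members, of the genes listed as reductants of the peroxidases and of the sources of superoxide or peroxide, for genes averaging 0.5 TPM or more that are reported here by name, coloured by time and shaped by identifier series. Txn1 stands highest at a mean of 577 TPM, and the triangles of series 2 lie apart from the circles for Prdx4, Gpx3 and Gpx7.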

How the data were processed

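RNA-seq of 5 sham-exposed libraries, 2 at 1 h and 3 at 8 h, was used, with groups and replicate numbers from the labels. The authors sequenced stranded poly-A libraries, aligned reads to GRCm38 with STAR and counted them with featureCounts. The deposited count table holds raw read counts per gene, is described as filtered, and lists 7599 genes with 13988166 to 18572154 counts per column. For each library the authors deposited a table per gene of TPM, FPKM and mean per-base coverage (signal). Their tool is not given in the sources used. No column of values was left unassigned (0), and 0 count rows lacked a gene.

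TPM was summed per gene identifier. Coverage was compared with TPM, and the deposited FPKM was used only to check depth. The test of TPM was limma 3.58.1 (R 4.3.3) with a trend in intensity, run on log2(TPM + 1) of all genes averaging 1 TPM or more, and fold changes on this scale understate those of low genes. Counts were tested with edgeR 4.0.16 (quasi-likelihood, TMM, filterByExpr), with DESeq2 1.42.0 and limma-voom as alternatives. All p-values were adjusted by Benjamini-Hochberg over all genes tested, and thresholds were an adjusted p of 0.05 and an absolute log2 fold change of 1. The scripts were tested on simulated data. No pair of count columns agreed within sampling noise (lowest chi-square per degree of freedom 10.2).

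The members and lists were chosen with earlier results of these data known. All members were named, and of each other list the genes called and otherwise up to 4 with the highest mean TPM and those under 1. The reading of per-base coverage in place of TPM was chosen after seeing the data. Sequences and start sites came from RefSeq, gene models from GENCODE vM21. Sod1 and Sod2 coordinates differ from vM21, and those printed are the tables' own. No protein sequence was used here. A few genes on the lists go unnamed here but enter the list totals.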

Additional observations from a re-analysis of the deposited data

How the results depend on the processing

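No paired analysis was possible because the 1 h and 8 h groups share no replicate number. None of the 10 enzymes was called under any alternative run for TPM, counts or identifier series (0 in each). Apart from Gpx1, their TPM varied by only 1.09-fold to 1.54-fold between libraries, too little for the fold threshold whatever the p-value. These zeros thus say little about stability. Without 8 h replicate 14, Prdx3 and Sod1 met the adjusted p (0.0358 and 0.0494 by limma) but not the fold threshold. The number of all genes called by TPM between the times was 6, and it became 0 without the filter on low TPM and 19 with the identifier series as a term. It ran from 0 to 573 when each library was left out in turn: 573 when 8 h replicate 14 was absent, 1 when 8 h replicate 13 was, and 0 otherwise. The peroxiredoxin share of the peroxide-removing TPM was 69.0% by per-base coverage, chosen after seeing the data, and 71.7% to 73.2% when each library was left out.

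Some signs turned. By TPM between the times, with the series as a term or in series 1 alone, the log2 fold change was 0.017 for Prdx1 and -0.28 for Prdx6. Prdx2 became -0.071 with median-ratio scaling and -0.0081 without mitochondrial genes, and its series coefficient -0.074 and -0.015. When each library was left out, Prdx6 ran from -0.092 to 0.33 and Gpx1 from -0.36 to 2.45, both with the negative end when 1 h replicate 2 was absent. By counts with the series as a term, set by column names that do not match the TPM tables at 8 h, the values were 0.025 for Prdx1, 0.0091 for Prdx2 and 0.10 for Sod1. With each count column left out, Prdx1 ran from -0.10 to 0.018 (0.0012 without 1 h replicate 1), Prdx2 from -0.043 to 5.4e-05 and Cat from -0.059 to 0.016 (0.0096 without 1 h replicate 2). The causes were not tested. Median-ratio scaling shifted the median of all genes by -0.11 between the times. Of the other alternatives 295 counted as unchanged. They kept direction and side of the threshold, moved by less than the spread between libraries, or gave a similar number of genes called. For all genes called by TPM between the times, similar meant 4 to 7 beside 6. TPM keeps no depth, so no counting interval could be given, and 2 and 3 libraries limit the precision.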
